A study of Mus musculus with 12 samples.

Results

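Fatty acid oxidation and ketone metabolism were followed through 40 genes, named by symbol, of the 22609 gene rows counted in each liver library. All 40 were found by symbol and all 40 passed the filter on low counts. They comprised 4 genes of the carnitine shuttle, 13 of mitochondrial beta-oxidation, 13 of peroxisomal oxidation, 1 ketone enzyme (Bdh1), 3 of fatty acid uptake and activation, 2 cytosolic acyl-CoA thioesterases and 4 genes of the fuel switch that respond to the nuclear receptor PPAR-alpha. The members are a list of symbols by function, with no threshold on a measured value, and the list was drawn up with earlier results of these data known. Each gene was assigned to a single compartment or role, and the location of the proteins was not measured.

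Hepatocytes burn long-chain fatty acids in mitochondria, after the carnitine shuttle has carried the acyl groups across the inner membrane. Peroxisomes shorten very long, branched and dicarboxylic acyl chains and pass the products on. In fasting or stress the acetyl-CoA from mitochondria is turned into ketone bodies for other tissues, and many of these genes are induced by PPAR-alpha when free fatty acids rise.

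The study sequenced ribosomal RNA-depleted total RNA from livers of male C57BL/6 mice aged 8 weeks. Mice were wild type or knockout for TRIM21, an E3 ubiquitin ligase and antibody receptor of the cytosol. They had received 1 intraperitoneal injection of diethylnitrosamine (DEN), a hepatotoxic carcinogen, at 200 mg/kg in PBS, or PBS alone, and livers were taken 48 h later. There were 3 wild-type and 3 knockout libraries under PBS, 3 wild-type and 2 knockout libraries under DEN, and 1 DEN library labelled TRIM21+/-. Neither the deleted allele nor the cells that lose it are given in the sources used here. Libraries are called by title, as in DENKO_141. No label states that the libraries of a group come from different animals, and p-values therefore reflect only the spread among the libraries, which may be technical.

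Gene counts per library ranged from 17303124 to 23059252. Trim21 had at most 5 counts in each knockout library, 93 to 225 in each wild-type library and 7 in the library labelled heterozygote, which goes against that label. This last library was left out of the tests and is described at the end. Hepatocyte markers were high in all libraries, with summed levels from 76219 to 123369 CPM, which are counts scaled to a common library size. Striated muscle markers summed to at most 1.43 CPM. The monocyte and neutrophil markers summed to 4.19 to 11.4 CPM under PBS and to 34.7 to 93.5 CPM under DEN. Of the 8 tested, 7 rose and 0 fell after DEN in wild type (29.2% and 26.7% of all tested genes). Ltf alone had 0 to 5 counts per PBS library and 308 to 1707 per DEN library, so the sums under DEN depend strongly on this gene. In bulk liver, fewer cells of a type and less RNA per cell cannot be told apart.

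In wild-type liver 11 of the 17 mitochondrial members rose after DEN and 3 fell, the 13 peroxisomal members included 5 that rose and 5 that fell, and Bdh1 fell. A gene was called when edgeR's quasi-likelihood test gave a Benjamini-Hochberg adjusted p under 0.05 over all 13255 tested genes. Of the 40 members, 19 were higher and 10 lower, against 29.2% of all tested genes called higher and 26.7% called lower. The members' median log2 fold change was 0.47, against 0.04 over all tested genes. With library sizes taken as total counts, the median over all genes moved to 0.53 and that of the members to 0.94. The share of higher genes among all calls then went from 52.3% to 78.8%, so directions are relative to the scaling.

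**Figure D1:**
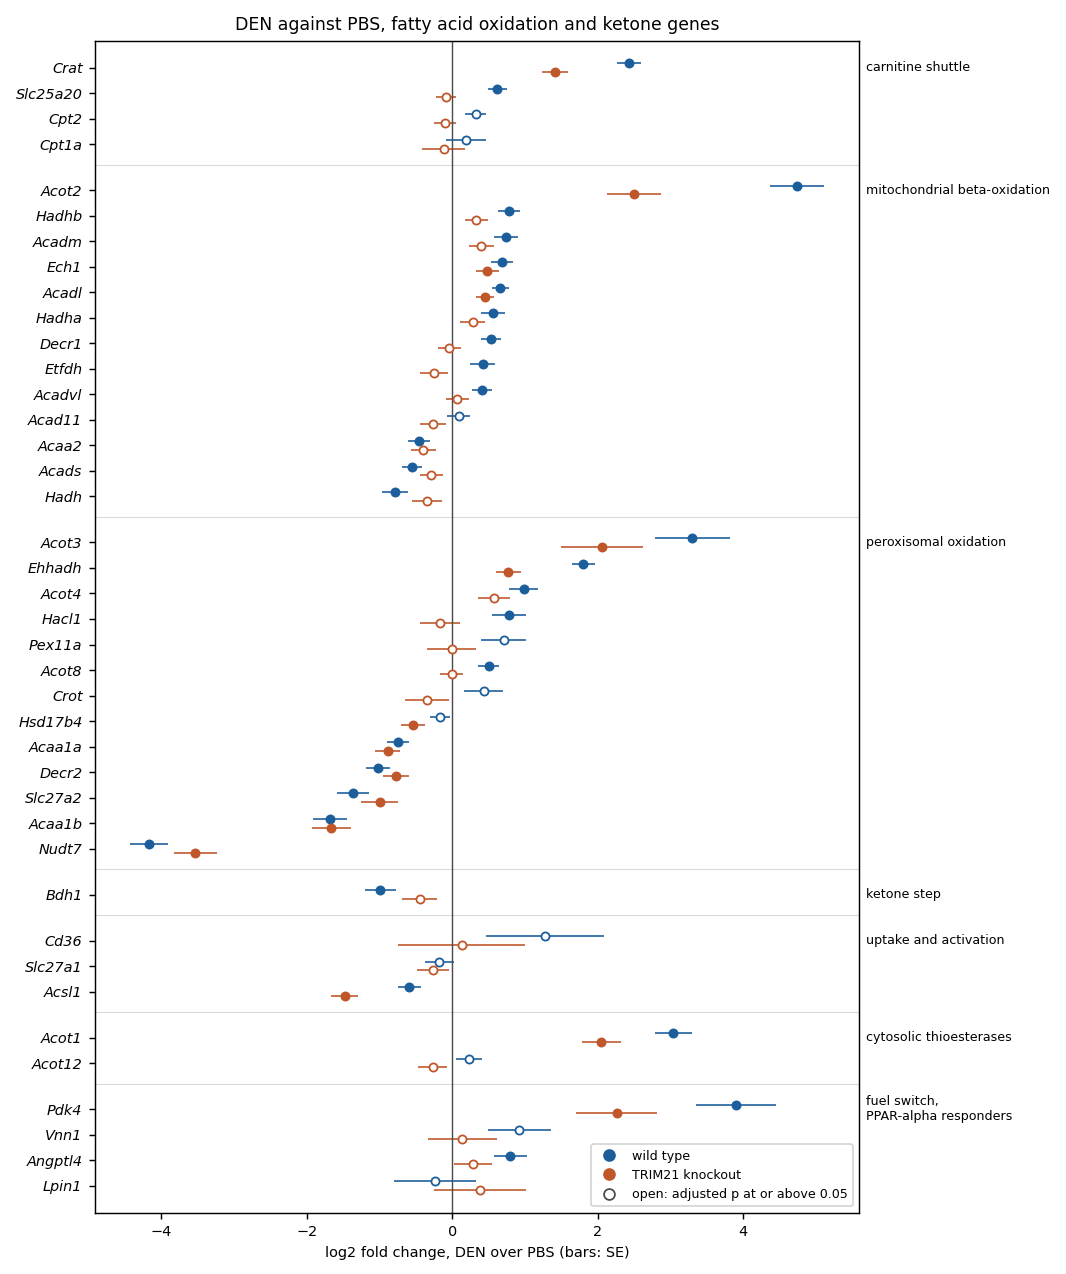
Log2 fold change of DEN over PBS (horizontal axis) for each of the 40 members, in wild type (blue) and TRIM21 knockout (orange), grouped by role; bars are standard errors and open points had an adjusted p of 0.05 or more. Acot2, Pdk4, Acot3, Acot1 and Crat lie farthest right and Nudt7 farthest left in both genotypes.

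In the carnitine shuttle, Crat and Slc25a20 rose in wild type. Crat encodes carnitine acetyltransferase, which moves acetyl groups between CoA and carnitine. Its level was 38.1, 25.2 and 31.6 CPM in the PBS wild-type libraries and 191, 157 and 163 CPM in the DEN wild-type libraries, with no overlap. This was a log2 fold change of 2.43 ± 0.17 (SE, adjusted p = 2.2e-07, n = 3 and 3). Slc25a20, the carnitine-acylcarnitine translocase of the inner membrane, went from 179, 156 and 183 CPM to 276, 276 and 243 CPM, again without overlap (0.62 ± 0.13, adjusted p = 0.0010). Cpt1a, the rate-limiting palmitoyltransferase of the outer membrane, was not called (0.19 ± 0.27, adjusted p = 0.57). Its groups overlapped, at 667, 477 and 449.9 CPM under PBS and 732, 552 and 539.8 CPM under DEN. Cpt2, the palmitoyltransferase of the inner membrane, had a log2 fold change of 0.32 ± 0.14 and also missed the threshold (adjusted p = 0.058).

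Of the 13 genes of mitochondrial beta-oxidation, 9 rose, 3 fell and 1 was not called in wild type, and their median was 0.53 on the log2 scale. Over all tested genes 29.2% were called higher and 26.7% lower. Very-long-chain Acadvl rose by 0.41 ± 0.14 on the log2 scale, long-chain Acadl by 0.66 ± 0.12 and medium-chain Acadm by 0.74 ± 0.16. Short-chain Acads fell by 0.55 ± 0.14, with -0.08 under total-count scaling (adjusted p = 0.63), and Acad11, a further acyl-CoA dehydrogenase, was not called at 0.09 ± 0.16. The Acadvl call was lost without DENWT_307, PBSWT_542 or PBSWT_545, with adjusted p of up to 0.10.

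The later steps also included rising and falling genes. Hadha and Hadhb, the subunits of the trifunctional protein that handles long acyl chains, rose by 0.56 ± 0.16 and 0.78 ± 0.15. Hadh, the hydroxyacyl-CoA dehydrogenase for shorter chains, fell by 0.79 ± 0.18, from 419, 387 and 429 CPM to 297, 232 and 188 CPM. Acaa2, the thiolase of the last step, fell by 0.46 ± 0.15 (adjusted p = 0.021). The value for Acaa2 was 0.02 with total-count scaling (adjusted p = 0.91), and under that scaling Acads and Hadh were not called either. The Acaa2 call was also lost without DENWT_995, DENWT_996 or PBSWT_541, with log2 fold changes between -0.58 and 0.02 over all alternatives.

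The auxiliary enzymes for unsaturated fatty acids rose in wild type, Decr1, a dienoyl-CoA reductase, by 0.53 ± 0.14 and Ech1, a dienoyl-CoA isomerase, by 0.68 ± 0.15. Etfdh, which passes electrons from the dehydrogenases to ubiquinone, rose by 0.42 ± 0.17 (adjusted p = 0.045). That call was lost in 8 of 19 alternatives, including those without DENKO_141, DENKO_309, DENWT_307, DENWT_996, PBSWT_542 or PBSWT_545, with adjusted p of up to 0.19.

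Acot2, the acyl-CoA thioesterase of the mitochondrial matrix, had the highest log2 fold change of the 40 members. It was at 2.95, 2.56 and 3.85 CPM in the PBS wild-type libraries and at 84.4, 49.7 and 114 CPM in the DEN wild-type libraries. All 3 DEN libraries were far above all PBS libraries (4.74 ± 0.37, adjusted p = 3.8e-06). Acot1, its cytosolic relative, rose from 18.1, 9.06 and 16.9 CPM to 111, 109 and 140.6 CPM (3.04 ± 0.26, adjusted p = 2.8e-06). The longest annotated transcripts of Acot1 and Acot2 share 23.7% and 24.5% of their 50-base windows, so reads may be split between them or lost and their single values are uncertain. Acot12, a cytosolic acetyl-CoA thioesterase, was not called (0.23 ± 0.18, adjusted p = 0.30).

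Of the 13 peroxisomal genes, 5 rose, 5 fell and 3 were not called in wild type, and their log2 fold changes ranged from -4.17 to 3.30. Over all tested genes 29.2% were called higher and 26.7% lower. Ehhadh, the bifunctional enzyme of the inducible peroxisomal pathway, went from 279, 212 and 274 CPM to 926, 761 and 981 CPM, with no overlap (1.80 ± 0.16, adjusted p = 1.6e-06). Acot3, a peroxisomal thioesterase, went from 3.60, 2.25 and 6.64 CPM to 55.4, 20.1 and 45.4 CPM (3.30 ± 0.52, adjusted p = 5.3e-04). The other thioesterases Acot4 (0.98 ± 0.20) and Acot8 (0.50 ± 0.14) and the alpha-oxidation lyase Hacl1 (0.78 ± 0.24) rose as well. The Hacl1 call was lost without DENWT_307, PBSWT_541 or PBSWT_542, with adjusted p of up to 0.066.

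Nudt7, a peroxisomal hydrolase that breaks down coenzyme A, had the strongest fall of all members. Its level was 1350.0, 1432 and 1112 CPM in the PBS wild-type libraries and 71.1, 83.5 and 61.9 CPM in the DEN wild-type libraries. The groups were far apart (-4.17 ± 0.26, adjusted p = 8.1e-08). Acaa1b, a peroxisomal thiolase, went from 837, 655 and 830.2 CPM to 346, 191 and 188 CPM (-1.68 ± 0.24, adjusted p = 5.9e-05). Its neighbour in function Acaa1a fell by 0.75 ± 0.15 (adjusted p = 8.1e-04), a call that total-count scaling removed. The longest annotated transcripts of Acaa1a and Acaa1b share 34% and 35.5% of their 50-base windows, which makes the single values of these thiolases uncertain too.

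Slc27a2, a very-long-chain acyl-CoA synthetase, went from 2302, 2138 and 1970.2 CPM under PBS to 1068, 867 and 564 CPM under DEN in wild type. All 3 DEN libraries were below the PBS libraries (-1.36 ± 0.22, adjusted p = 1.7e-04). Decr2, the peroxisomal dienoyl-CoA reductase, went from 355, 329 and 338 CPM to 197, 164 and 142 CPM (-1.02 ± 0.16, adjusted p = 1.3e-04). It thus fell where its mitochondrial counterpart Decr1 rose. Hsd17b4, the bifunctional enzyme for branched and very long chains (-0.17 ± 0.14), Crot, the octanoyltransferase that exports shortened chains (0.43 ± 0.27), and Pex11a, a factor of peroxisome division (0.71 ± 0.31), were not called.

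Bdh1 encodes the dehydrogenase that turns acetoacetate into beta-hydroxybutyrate. In wild type it went from 325, 282 and 265 CPM under PBS to 205, 131 and 103 CPM under DEN, with no overlap (-0.99 ± 0.21, adjusted p = 0.0015). Of the members for uptake and activation, Acsl1, the main long-chain acyl-CoA synthetase of liver, went from 1267, 1127 and 1261 CPM to 953, 693 and 784 CPM (-0.59 ± 0.16, adjusted p = 0.0074). That call was absent with total-count scaling (adjusted p = 0.52). The fatty acid transporters Cd36 (1.28 ± 0.81) and Slc27a1 (-0.18 ± 0.20) were not called, and Cd36 varied from 9.03 to 28.2 CPM within the PBS wild-type group alone.

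Pdk4, the kinase that shuts off pyruvate oxidation and so favours fat, went from 7.44, 6.14 and 11.9 CPM to 80.3, 129 and 168 CPM in wild type. The groups did not overlap (3.90 ± 0.55, adjusted p = 4.0e-04). Angptl4, a secreted inhibitor of lipoprotein lipase, rose by 0.80 ± 0.23 (adjusted p = 0.010). Vnn1, a pantetheinase (0.92 ± 0.43), and Lpin1, a phosphatidate phosphatase and coactivator (-0.24 ± 0.56), were not called. Lpin1 spanned 143 to 393 CPM within the PBS wild-type group.

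**Figure D2:**
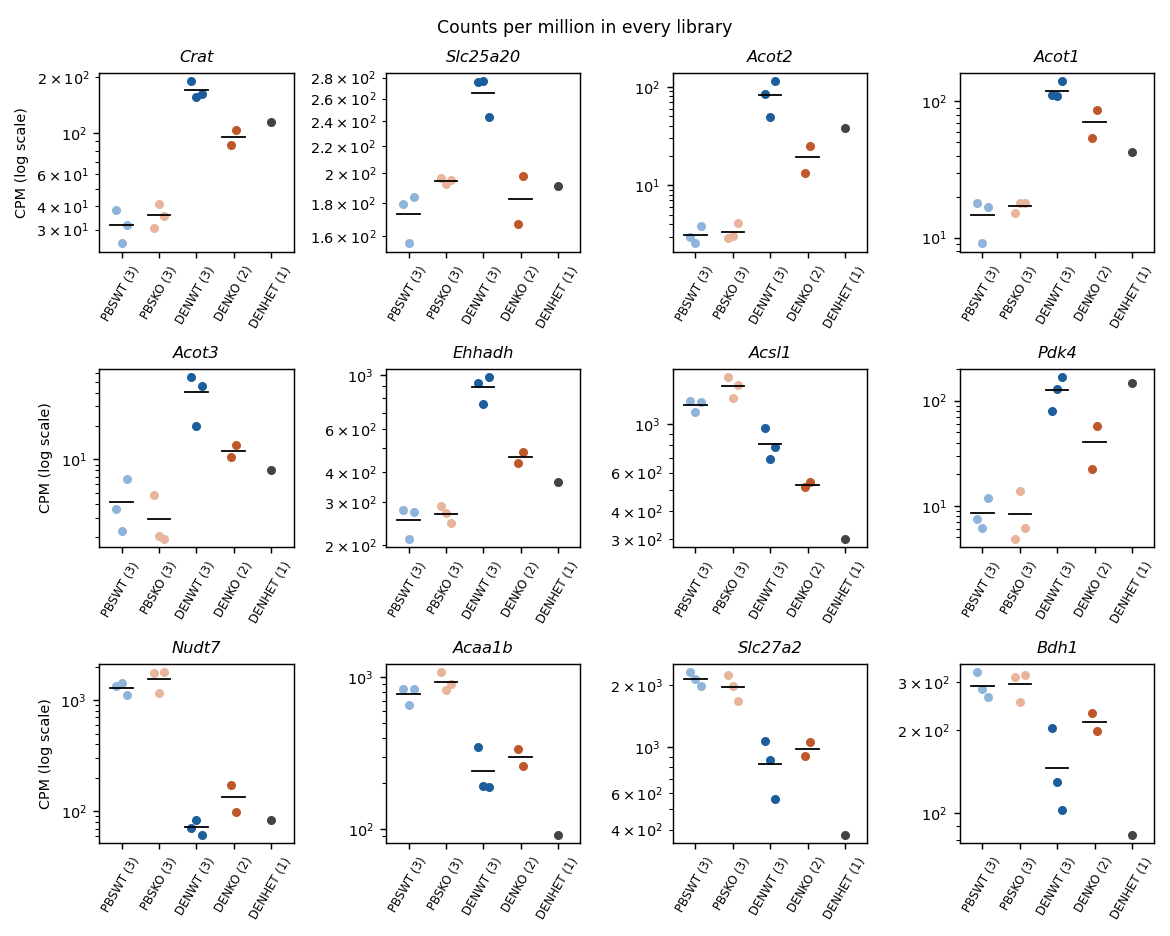
CPM on a log axis for 12 members in every library, by group, with the number of libraries in brackets; lines are group means. The DEN knockout points of Crat, Acot2, Acot3 and Ehhadh lie between the PBS and the DEN wild-type points, and the Nudt7 points under DEN lie far below those under PBS.

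The DEN response in the knockout held the strong rises and the peroxisomal falls, with few of the smaller mitochondrial rises past the threshold. Of the 40 members, 8 were higher and 7 lower, against 12% of all tested genes called higher and 10.7% called lower, and the median was -0.07 against 0.01 over all genes. With total-count scaling the medians were 0.33 for the members and 0.41 for all genes, and the share of higher genes among all calls went from 53% to 89.2%. The 8 higher members were Crat, Acadl, Ech1, Acot2, Ehhadh, Acot3, Acot1 and Pdk4, which were also higher in wild type. The 7 lower members were Acaa1a, Acaa1b, Decr2, Nudt7, Slc27a2, Acsl1 and Hsd17b4, of which the first 6 were also lower in wild type. These counts depended on single libraries. Without DENKO_309 they were 3 higher and 4 lower, and without DENKO_141, PBSKO_544 or PBSKO_549 there were 5 higher.

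Crat was at 30.4, 41.2 and 35.7 CPM in the PBS knockout libraries and at 85.9 and 104 CPM in the DEN knockout libraries (1.41 ± 0.18, adjusted p = 1.3e-04, n = 2 and 3). Acot2 went from 2.90, 3.08 and 4.10 CPM to 13.2 and 25.1 CPM (2.50 ± 0.37, adjusted p = 0.0011). Both genes were above their PBS range in both DEN knockout libraries and below all 3 DEN wild-type libraries. Acot1 went from 15.3, 17.9 and 17.9 CPM to 54.1 and 86.9 CPM (2.05 ± 0.27, adjusted p = 2.8e-04). The smaller rises were those of Acadl (0.45 ± 0.13) and Ech1 (0.48 ± 0.16). Acadl lost its call without DENKO_141, DENKO_309 or PBSKO_544, with adjusted p of up to 0.12, and Ech1 in 13 of 19 alternatives, with adjusted p of up to 0.34. Leaving out any of 9 libraries removed the Ech1 call, namely each library of the knockout and of the PBS wild-type groups and DENWT_995.

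Ehhadh went from 289.7, 269.7 and 246 CPM to 436 and 482 CPM in the knockout (0.77 ± 0.17, adjusted p = 0.0064). Both DEN libraries were above the PBS range, and the call was lost without DENKO_309 (adjusted p = 0.068). Acot3 went from 4.77, 2.04 and 1.92 CPM to 10.5 and 13.5 CPM (2.06 ± 0.56, adjusted p = 0.028). Pdk4 went from 4.83, 13.9 and 6.17 CPM to 22.5 and 57.7 CPM (2.26 ± 0.56, adjusted p = 0.021). The 2 DEN knockout libraries of Pdk4 lay apart, and without DENKO_309 the log2 fold change was 1.42 (adjusted p = 0.20). Pdk4 also missed the threshold without PBSKO_154 or PBSKO_549 (adjusted p = 0.056 and 0.060). Acot3 lost its call without DENKO_141, DENKO_309, PBSKO_544 or PBSKO_549, with adjusted p from 0.066 to 0.16.

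Among the falling members in the knockout, Nudt7 went from 1758, 1164 and 1780.1 CPM to 173 and 98.7 CPM (-3.53 ± 0.30, adjusted p = 3.3e-06). Acaa1b went from 1075, 826 and 908 CPM to 335 and 259 CPM (-1.66 ± 0.27, adjusted p = 8.8e-04). Both fell in each genotype without overlap between treatments. Slc27a2 went from 2240.1, 1986 and 1669 CPM to 905 and 1056 CPM (-1.0 ± 0.25, adjusted p = 0.011) and lost its call without either DEN knockout library, with adjusted p of up to 0.085. Acsl1 went from 1634, 1303 and 1500.1 CPM to 515 and 542.1 CPM (-1.48 ± 0.19, adjusted p = 1.4e-04). Decr2 went from 330.0, 348 and 249 CPM to 182 and 181 CPM (-0.77 ± 0.18, adjusted p = 0.0081), a call lost without DENKO_309 and with total-count scaling (adjusted p of up to 0.082). Acaa1a had -0.89 ± 0.17 (adjusted p = 0.0021) and Hsd17b4 -0.54 ± 0.16 (adjusted p = 0.030). The Hsd17b4 call was lost without DENKO_141, DENKO_309 or PBSKO_154 and, with adjusted p = 0.46, under total-count scaling.

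Bdh1 was at 312, 253 and 318 CPM in the PBS knockout libraries and at 231 and 199.9 CPM in the DEN knockout libraries, lower in both but not called (-0.45 ± 0.24, adjusted p = 0.19). The remaining 11 members that had risen in wild type, among them Slc25a20 (-0.09 ± 0.14), Acadvl (0.07 ± 0.16), Decr1 (-0.04 ± 0.16) and Hacl1 (-0.17 ± 0.27), were not called in the knockout. Whether a response differed between genotypes is answered by the interaction given further on.

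Under PBS no member differed between knockout and wild type in edgeR. There were 0 calls and 0 members with an unadjusted p under 0.05, and DESeq2 and limma-voom also called 0. Of all tested genes 0.00754% were called in either direction, which is 1 gene, and 508 had an unadjusted p under 0.05. The members' log2 fold changes ranged from -0.97 for Lpin1 to 1.40 for Cd36, with a median of 0.06. Those extremes had wide errors, 0.57 for Lpin1 and 0.81 for Cd36, and the PBS knockout libraries spanned 17 to 99.7 CPM for Cd36. For the 13 genes of mitochondrial beta-oxidation the range was -0.11 to 0.15.

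Under DEN the knockout had lower levels of Crat, Slc25a20, Acot2, Ehhadh, Acot3 and Acsl1 than wild type, and a higher level of Nudt7. These 6 lower and 1 higher members compare with 9.85% of all tested genes called lower and 12.2% called higher. The median over the 40 members was -0.37, against 0.01 over all tested genes. Of the members, 31 had a negative and 9 a positive log2 fold change. The lower count was 13 with total-count scaling and 12 with DESeq2.

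**Figure D3:**
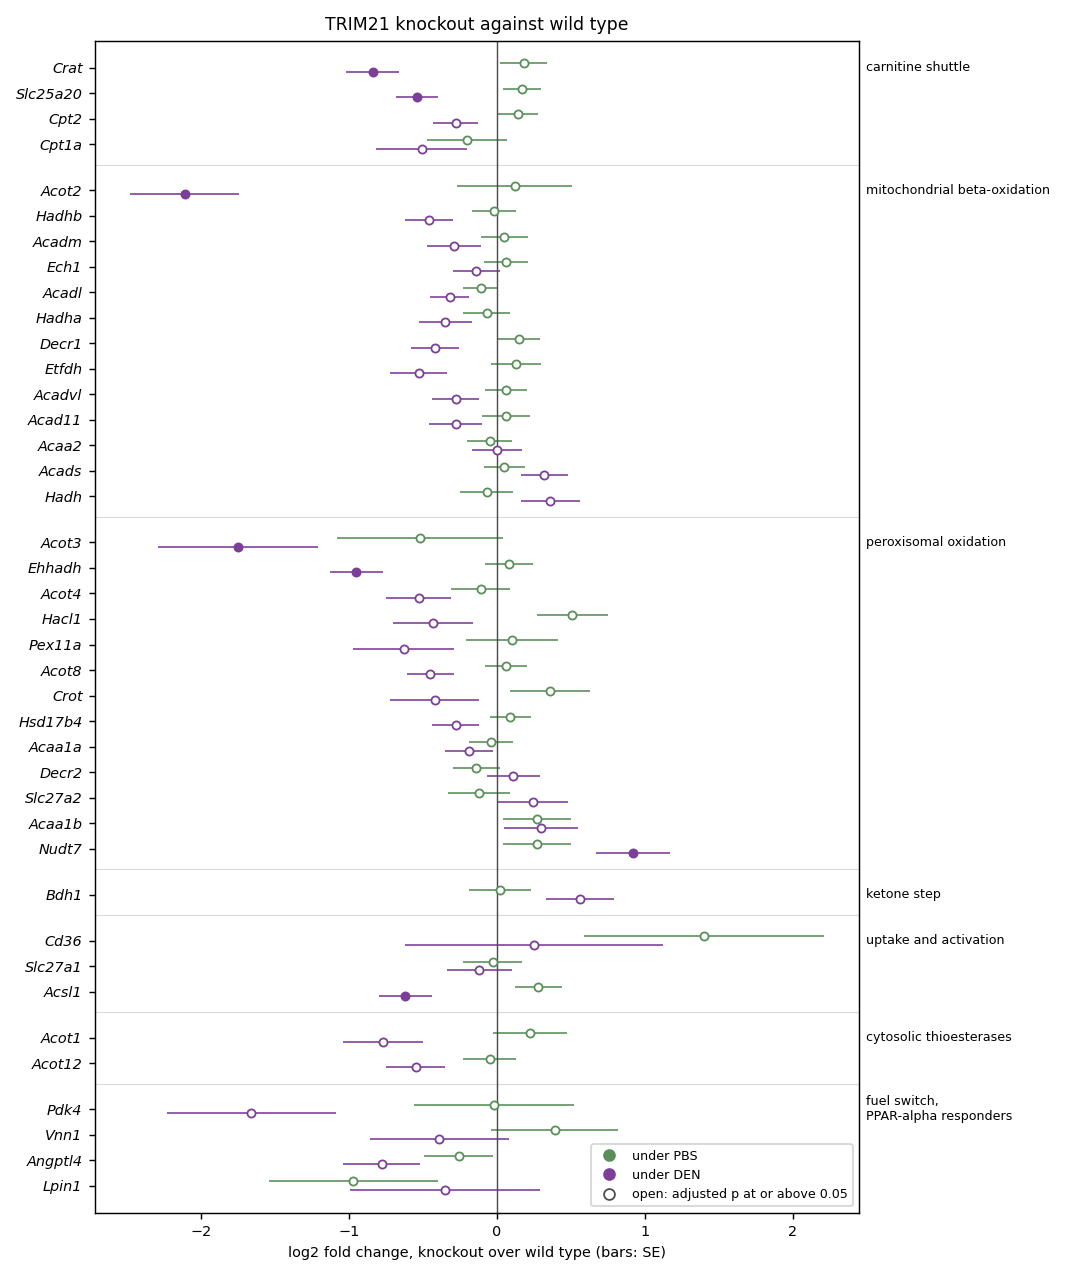
Log2 fold change of TRIM21 knockout over wild type (horizontal axis) under PBS (green) and under DEN (purple) for the 40 members; bars are standard errors and open points had an adjusted p of 0.05 or more. No PBS point is filled, and the filled DEN points are Crat, Slc25a20, Acot2, Acot3, Ehhadh and Acsl1 on the left and Nudt7 on the right.

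Of the carnitine shuttle genes, Cpt1a (-0.51, adjusted p = 0.25) and Cpt2 (-0.28, adjusted p = 0.19) were not called. The DEN knockout libraries held 85.9 and 104 CPM of Crat against 157 to 191 CPM in DEN wild type (-0.84 ± 0.18, adjusted p = 0.0080, n = 2 and 3). Slc25a20 was at 167 and 198 CPM against 243 to 276 CPM (-0.54 ± 0.14, adjusted p = 0.018). For Slc25a20 the DEN knockout values lay on either side of those of the PBS knockout libraries, which were 196, 192 and 196 CPM. Within the mitochondrion Acot2 was at 13.2 and 25.1 CPM against 49.7 to 114 CPM (-2.11 ± 0.37, adjusted p = 0.0049). The remaining 12 genes of mitochondrial beta-oxidation were not called, with Etfdh (-0.53 ± 0.19) and Hadhb (-0.46 ± 0.16) both at an adjusted p of 0.057.

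Of the peroxisomal genes, Ehhadh was at 436 and 482 CPM against 761 to 981 CPM (-0.95 ± 0.18, adjusted p = 0.0045). Acot3 was at 10.5 and 13.5 CPM against 20.1 to 55.4 CPM (-1.75 ± 0.54, adjusted p = 0.045). Nudt7 was at 173 and 98.7 CPM against 61.9 to 83.5 CPM (0.92 ± 0.25, adjusted p = 0.022). None of these 3 genes overlapped between the genotypes under DEN, but this does not set them apart. Among all members, both DEN knockout libraries lay below all DEN wild-type libraries for 26 and above them for 2, with overlap for 12. The share over all tested genes was not taken for this count. In activation, Acsl1 was at 515 and 542.1 CPM against 693 to 953 CPM (-0.62 ± 0.18, adjusted p = 0.030). Pdk4 (-1.66 ± 0.57, adjusted p = 0.069), Acot1 (-0.77 ± 0.27, adjusted p = 0.058) and Angptl4 (-0.78 ± 0.26, adjusted p = 0.050) were not called. Bdh1 had 0.56 ± 0.23 (adjusted p = 0.10), with 1 knockout value above the wild-type range and 1 within it.

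All of these 7 calls rested on the library DENKO_141. Without it the knockout was represented by DENKO_309 alone, whose spread was taken to equal that of the other groups, and no member was called. The log2 fold changes were then -0.71 for Crat (adjusted p = 0.12), -0.42 for Slc25a20 (0.19), -1.72 for Acot2 (0.063), -0.88 for Ehhadh (0.074), -1.58 for Acot3 (0.26), -0.58 for Acsl1 (0.19) and 0.45 for Nudt7 (0.35). Nudt7 was also not called without DENWT_996 (adjusted p = 0.084), and without DENWT_307 there were 3 higher members. Acot3 was not called without DENKO_309, DENWT_307, DENWT_996 or PBSWT_541, and Acsl1 not without DENKO_309, DENWT_307 or DENWT_996. Lower members numbered 4 without DENWT_307 and 9 without PBSKO_549, PBSWT_541 or PBSWT_542.

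The interaction, the log2 response to DEN in the knockout less that in wild type, asked whether the response itself differed. It was called for 5 of 40 members, all lower, and for none higher, against 2.50% of all tested genes called lower and 4.07% called higher. These were Acot2 (-2.23 ± 0.53, adjusted p = 0.036), Ehhadh (-1.03 ± 0.24, adjusted p = 0.029), Crat (-1.02 ± 0.25, adjusted p = 0.032), Acsl1 (-0.90 ± 0.24, adjusted p = 0.045) and Slc25a20 (-0.71 ± 0.19, adjusted p = 0.041). For Acot2, Ehhadh and Crat the rise was smaller in the knockout. For Slc25a20 a rise was called in wild type alone, and for Acsl1 the fall was larger in the knockout. In edgeR 10 of the 40 members had an unadjusted p under 0.05, which is near the share over all tested genes, 3355 of 13255. The members' median was -0.42 against 0.00 over all tested genes. DESeq2 called 5 members lower and limma-voom 4, and both called 0 higher.

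The interaction calls depended on single libraries. Without DENKO_141, PBSWT_542 or PBSWT_545 no member was called, and without DENWT_996 or PBSKO_154 there was 1. Without DENWT_307, PBSKO_544, PBSKO_549 or PBSWT_541 there were 2, and without DENKO_309 or DENWT_995 there were 4. Across the 18 alternatives the log2 values stayed between -2.77 and -1.84 for Acot2, -1.13 and -0.92 for Ehhadh, -1.18 and -0.89 for Crat, -1.0 and -0.76 for Acsl1, and -0.84 and -0.59 for Slc25a20. The highest adjusted p were 0.16, 0.16, 0.18, 0.20 and 0.22 in the same order.

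Genes listed as markers of other cells also differed between groups. Of 7 genes listed as adipocyte markers, only Cidec, a lipid droplet protein, and Fabp4, a fatty acid binding protein, could be tested. These 2 were higher after DEN in wild type (log2 5.57 and 1.86). Both were lower in the knockout than in wild type under DEN (-2.87 and -1.04) and in the interaction (-2.60 and -1.97). The summed adipocyte markers were 7.53 to 7.70 CPM in PBS wild type, 10.4 to 12 in PBS knockout, 149 to 202 in DEN wild type and 15.7 to 41.0 in DEN knockout. Most of this in DEN wild type was Cidec, at 128 to 189 CPM. Lep had no count in any library, and Adipoq and Plin1 were at most 0.106 and 0.335 CPM. Cfd had 2 to 24 counts per PBS library and 0 to 4 per DEN library. The sums under DEN thus mostly follow Cidec and are no measure of fat cells. Kupffer cell and macrophage markers summed to 143 to 330.2 CPM in PBS wild type, 219 to 333 in PBS knockout, 135.8 to 233 in DEN wild type and 295 to 345 in DEN knockout, with no overlap between genotypes under DEN. Of the 8 tested, 2 rose and 4 fell after DEN in wild type (29.2% and 26.7% of all tested genes). Under DEN 1 was higher in the knockout (12.2% of all tested genes). Lymphocyte markers summed to 6.43 to 10.7 CPM in PBS wild type and 5.37 to 9.78 CPM in PBS knockout. Under DEN they summed to 1.61 to 2.09 CPM in wild type and 4.01 to 5.94 CPM in knockout. The DEN wild-type sums thus lay below those under PBS, while the knockout sums overlapped between treatments. Of the 8 lymphocyte markers tested, 5 fell and 0 rose after DEN in wild type (26.7% and 29.2% of all tested genes). Under DEN 3 were higher in the knockout (12.2% of all tested genes). The part of these markers in the results was not tested.

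Other genes of these and related pathways, including branched-chain and propionate enzymes, were taken from lists by role. Of the 112 listed symbols 103 could be tested. In wild type 21 rose, 53 fell and 29 were not called after DEN (29.2% of all tested genes were higher and 26.7% lower), with a median of -0.41 against 0.47 for the 40 members. In the knockout 11 rose and 41 fell, against 12% and 10.7% of all tested genes. Under DEN 26 were higher and 13 lower in the knockout than in wild type, against 12.2% and 9.85% of all tested genes, a share the 13 are near. The interaction was called for 11 higher and 5 lower, against 4.07% and 2.50%. Under PBS 0 were called in edgeR, and 2 had an unadjusted p under 0.05.

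**Figure D4:**
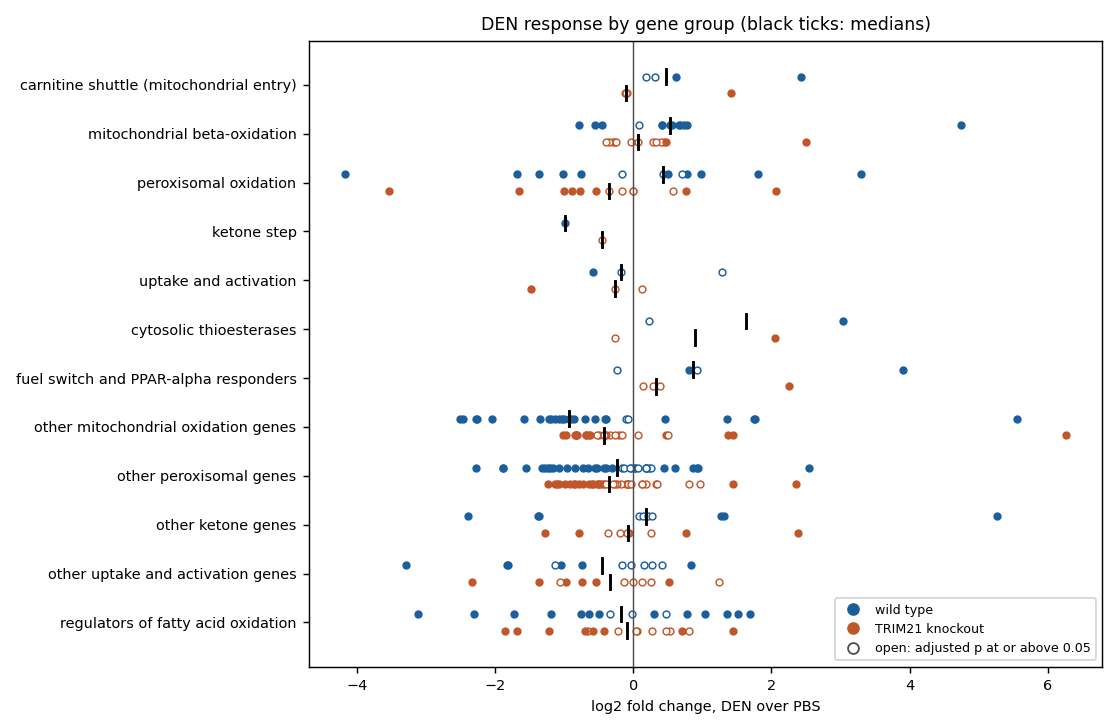
Log2 fold change of DEN over PBS for each tested gene of the member groups (upper 7 rows) and of the other pathway lists (lower 5 rows) in wild type (blue) and knockout (orange); black ticks are medians, open points had an adjusted p of 0.05 or more, and Acot5, without counts under PBS, is not drawn. The other mitochondrial genes, which include branched-chain and propionate enzymes, centre at -0.93 in wild type, against 0.53 for the beta-oxidation members.

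Most of the 27 other mitochondrial genes, which include short-chain, branched-chain and propionate enzymes, fell in wild type, 19 lower and 5 higher. Over all tested genes 26.7% were lower and 29.2% higher. Cpt1c, a carnitine palmitoyltransferase relative best known from brain, went from 0.295, 0.768 and 0.664 CPM to 24.9, 34.9 and 22.7 CPM (5.55 ± 0.30, adjusted p = 2.5e-08). In the knockout it went from 0.664, 0.298 and 0.319 CPM to 31.3 and 33.9 CPM (6.27 ± 0.32, adjusted p = 2.4e-08). Cpt1c thus rose in both genotypes where Cpt1a was not called. Acsm1, a medium-chain acyl-CoA synthetase, fell in wild type from 734, 638 and 718 CPM to 166, 128 and 73.8 CPM and was higher in the DEN knockout at 426 and 334 CPM (1.63 ± 0.26, adjusted p = 0.0021; interaction 1.66 ± 0.35, adjusted p = 0.022). Slc22a5, the carnitine importer of the cell membrane, was at 67.7, 69.7 and 90.5 CPM in DEN wild type and 28.0 and 37.9 CPM in DEN knockout (interaction -1.26 ± 0.30, adjusted p = 0.032). The Slc22a5 interaction was lost without DENKO_141, DENWT_996, PBSKO_154, PBSWT_542 or PBSWT_545 (adjusted p of up to 0.18), and that of Acsm1 without DENKO_141 or PBSWT_545 (up to 0.14).

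Among 38 other peroxisomal genes 6 rose and 19 fell in wild type, against 29.2% and 26.7% of all tested genes. Acot5, a further peroxisomal thioesterase, had 0 counts in all PBS libraries. In DEN wild type its counts were 12, 15 and 47, at least 16.6-fold higher against a floor of 3 counts over the PBS group. DENKO_141 and DENKO_309 had 1 and 0 counts, and the ratio of DEN wild type to DEN knockout was 48.2 (exact 95% counting interval 8.38 to 1928). Acot5 shares 13.8% of its 50-base windows with Acot1 and 14.1% with Acot3, and its call under DEN was lost without either DEN knockout library.

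Of the other ketone genes, 10 were tested, and 3 rose, 3 fell and 4 were not called after DEN in wild type, which is near the shares over all tested genes. Acat1, the mitochondrial acetoacetyl-CoA thiolase, was not called in any comparison. It was at 561, 439.9 and 469 CPM in PBS wild type and 683, 539.7 and 477 CPM in DEN wild type, with overlap (0.21 ± 0.17, adjusted p = 0.30). It was called higher in wild type with total-count scaling alone. Bdh2 and Oxct1 were named after their values were seen. Bdh2, a cytosolic dehydrogenase relative, fell in wild type from 20.6, 26.6 and 26.1 CPM to 6.92, 3.55 and 3.45 CPM (-2.40 ± 0.24, adjusted p = 4.3e-06). Oxct1, the enzyme with which other tissues use ketones, was at 1.52, 1.84 and 1.44 CPM in DEN wild type and 4.64 and 3.37 CPM in DEN knockout (1.33 ± 0.25, adjusted p = 0.0041, lost without DENKO_141 at 0.082).

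Fgf21, a fasting hormone of liver, went from 0.590, 0.154 and 0.199 CPM to 11.6, 9.76 and 15.2 CPM in wild type (5.27 ± 0.73, adjusted p = 1.8e-04). Its interaction was not called (-2.88, adjusted p = 0.16). The DEN knockout libraries had 0.690 and 4.34 CPM, below all 3 DEN wild-type libraries (-2.29 ± 0.63, adjusted p = 0.029). That difference was lost without DENKO_141, DENWT_307 or DENWT_996, with adjusted p of up to 0.12. The knockout's own response of 2.39 ± 0.77 (adjusted p = 0.048) was lost in 15 of 19 alternatives. Without DENKO_309, and so with DENKO_141 alone, it was 0.54 (adjusted p = 0.69). Only the alternatives without DENKO_141 and those with total-count scaling, DESeq2 or the non-robust spread kept it.

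Of 16 regulators tested, 6 were higher and 7 lower after DEN in wild type, against 29.2% and 26.7% of all tested genes. Ppara, which encodes PPAR-alpha, fell from 413, 327 and 355 CPM to 185, 151 and 143 CPM (-1.19 ± 0.21, adjusted p = 3.1e-04). Its fall in the knockout was not called (-0.66 ± 0.23, adjusted p = 0.056). Ppargc1a, the coactivator PGC-1alpha, rose in wild type from 10.1, 7.99 and 9.56 CPM to 21.3, 13.3 and 36.2 CPM (1.36 ± 0.29, adjusted p = 0.0019). It was at 10.0 and 11.8 CPM in DEN knockout (-1.12 ± 0.33 against wild type, adjusted p = 0.031), a difference of -0.67 without DENWT_996 (adjusted p = 0.094) and not called without DENKO_141 or DENKO_309 (0.22 and 0.093). The rise of Ppargc1a in the knockout was not called (0.80, adjusted p = 0.10), nor was its interaction (-0.57, adjusted p = 0.45). Under PBS the knockout already had -0.55 against wild type for Ppargc1a, not called. The interactions of Ppara (0.53, adjusted p = 0.29) and Pparg (1.27, adjusted p = 0.22) were not called either. Pparg, which encodes PPAR-gamma, fell from 9.09, 8.35 and 9.42 CPM to 0.614, 1.93 and 0.603 CPM in wild type (-3.12 ± 0.44, adjusted p = 1.3e-04). The fall in the knockout (-1.86 ± 0.45, adjusted p = 0.013) was lost without DENKO_309 (adjusted p = 0.13). In the DEN knockout Pparg was at 4.22 and 2.87 CPM (1.79 ± 0.48 against wild type, adjusted p = 0.024), a call lost without DENKO_141, DENWT_307 or DENWT_996 (adjusted p of up to 0.19).

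In uptake and activation, 5 of 12 further genes fell and 1 rose in wild type, against 26.7% and 29.2% of all tested genes. Fabp1, the liver fatty acid binding protein, went from 6669.6, 6157 and 5029 CPM to 2785, 1037 and 1210.4 CPM (-1.83 ± 0.36, adjusted p = 0.0011). It fell in the knockout as well (-2.34 ± 0.43, adjusted p = 0.0024). Acss2, the acetyl-CoA synthetase of cytosol and nucleus, went from 364, 242 and 304 CPM to 36.9, 32.9 and 23.4 CPM in wild type (-3.29 ± 0.25, adjusted p = 8.1e-07). It was at 106 and 59.5 CPM in DEN knockout, above all 3 wild-type libraries (interaction 1.93 ± 0.35, adjusted p = 0.016, and 0.094 without DENKO_141).

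Per kilobase of annotated exon, the order of the members changed with DEN. Acaa2 had 871 CPM per kb in PBS wild type, followed by Slc27a2 at 732, Acaa1b at 458 and Acsl1 at 292. In DEN wild type Acaa2 was still first at 634 CPM per kb, followed by Ech1 at 461, Acadvl at 355 and Ehhadh at 298. Nudt7 fell from 231 to 12.9 CPM per kb. Hadha and Hadhb, whose proteins form 1 complex, were at 90.5 and 12.8 CPM per kb in PBS wild type, and why their levels differ was not tested.

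Promoter sequence was read for the members because many of them respond to PPAR-alpha, which binds direct repeats of AGGTCA. RefSeq promoters of the GRCm38.p6 build, from 250 bases before to 50 bases after the start, matched 34 of the 40 members. The repeat AGGTCANAGGTCA, searched on both strands with at most 1 mismatch, occurred in 1 of 34 members (2.94%), Acot12, and in 0.644% of all genes with a promoter. The single hexamer AGGTCA, which is contained in the repeat and was added after the first search, occurred without mismatch in 9 of 34 members (26.5%) and in 18.1% of all genes. The p53 consensus pair, with at most 1 mismatch, occurred in 0 of 34 members and in 0.107% of all genes. A match is a description of these letters and no statement on binding. The window around the repeat of Acot12 is shown with hexamer windows of a member that rose in wild type (Acadvl), 1 that fell (Slc27a2) and 1 that was not called (Cpt1a). Each is written 5′ to 3′ on the strand of its gene, with the match in capitals; the reverse complement TGACCT marks a match on the other strand.
Acot12, chr13:91741381-91741453, plus strand, match from 110 bases before the start: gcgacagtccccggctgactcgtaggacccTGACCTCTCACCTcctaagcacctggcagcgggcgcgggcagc
Acadvl, chr11:70015480-70015545, minus strand, match from 87 bases before the start: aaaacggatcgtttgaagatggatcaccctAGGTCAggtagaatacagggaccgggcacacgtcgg
Slc27a2, chr2:126552774-126552839, plus strand, match from 220 bases before the start: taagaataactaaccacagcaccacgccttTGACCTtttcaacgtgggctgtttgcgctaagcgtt
Cpt1a, chr19:3323177-3323242, plus strand, match from 94 bases before the start: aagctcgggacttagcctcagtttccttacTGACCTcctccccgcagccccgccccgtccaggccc
These windows were picked to show members with different responses, so nothing on the hexamer and the response follows from them. Of the 9 members with the hexamer, Acadm, Acot3 and Acot4 also rose after DEN in wild type, and Cd36 and Lpin1 were not called.

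The DEN library labelled heterozygote was a single library and enters no test. It lay below the range of the DEN wild-type libraries for 32 of 40 members (80.0%), against 36.4% of all tested genes, above it for 4 (Hacl1, Slc27a1, Lpin1 and Angptl4) and within it for 4. Against the DEN knockout range it was below for 23 members (57.5%), above for 10 and within for 7, while over all tested genes 46.3% were below, 41.5% above and 12.2% within. On the scale of log2(CPM + 0.5) it was nearer the DEN wild-type mean for 18 members and nearer the DEN knockout mean for 22. The share over all tested genes was not taken for this count. For members below both DEN groups the nearer mean is only the lower one, so the count does not place the library between the genotypes. Acot2 was at 38.5 CPM, between the DEN knockout and DEN wild-type libraries, and so was Crat at 115 CPM. Pdk4 at 146 CPM lay within the wild-type range. Ehhadh at 363 CPM, Acsl1 at 299 CPM, Slc27a2 at 378 CPM, Acaa1b at 91.9 CPM and Bdh1 at 83.8 CPM were below both DEN groups, while Lpin1 at 474 CPM and Angptl4 at 492 CPM were above both. Its adipocyte markers summed to 369 CPM, of which Cidec was 337 CPM.

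**Figure D5:**
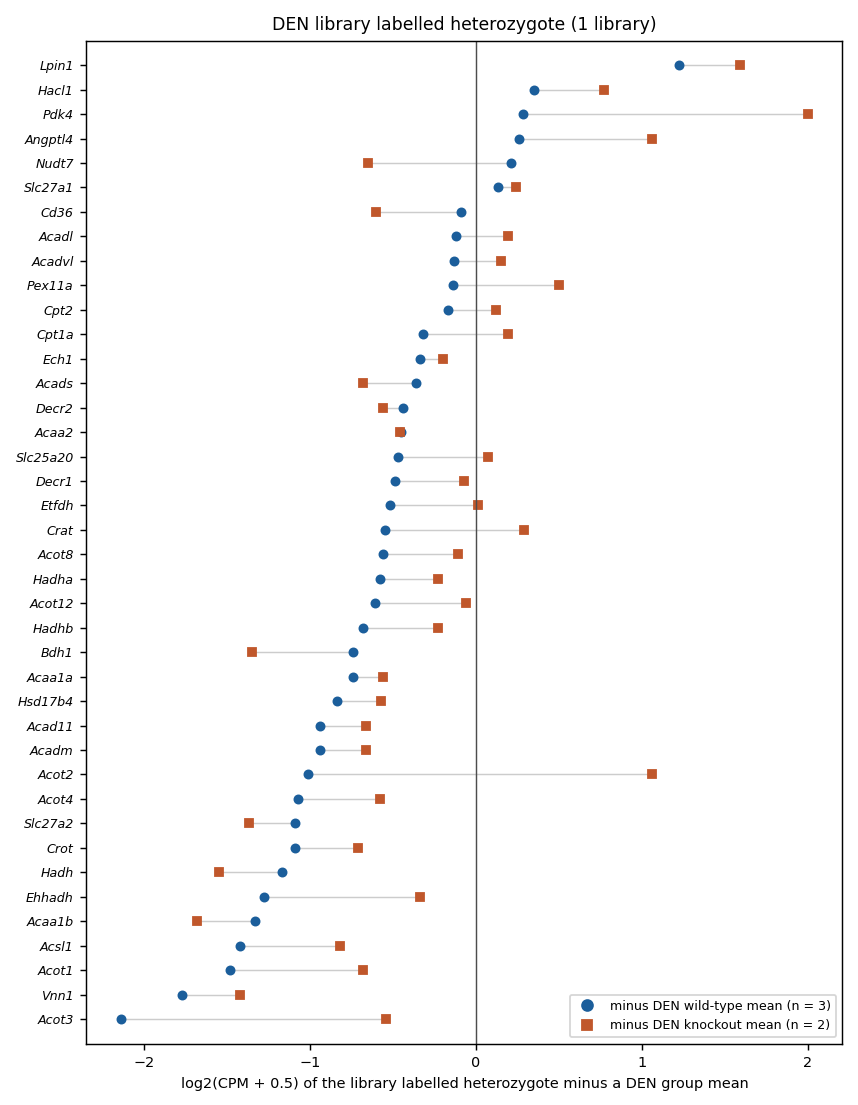
Difference in log2(CPM + 0.5) between the DEN library labelled heterozygote and the mean of the DEN wild-type (blue circles, n = 3) or DEN knockout libraries (orange squares, n = 2) for the 40 members. Most points lie left of 0; Acot3 is farthest below the wild-type mean and Lpin1 farthest above it.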

How the data were processed

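Raw counts of reads per gene symbol were deposited by the authors, 1 file per library, not normalized. The tools named per the submitters' processing notes are HTSeq, TopHat2 and bcl2fastq, and the genome build is mm9. Neither versions, annotation nor strand setting are given in the sources used here, so reads of overlapping or antisense genes cannot be told apart. The 5 tally rows that name no gene held 61.4% to 78.7% of the listed counts and were left out. The counts of 11 libraries in 4 groups were fitted together in R 4.3.3 with edgeR 4.0.16 (quasi-likelihood F test, robust spread, TMM scaling, filterByExpr by group), which kept 13255 of 22609 genes; groups came from the sample titles. TMM factors were 1.13 to 1.30 in the DEN and 0.858 to 0.901 in the PBS libraries. Adjustment followed Benjamini and Hochberg over all tested genes in each of 5 comparisons, with a threshold of 0.05. SE is the size of the log2 fold change over the square root of F, and CPM uses the TMM-scaled sizes. The scripts were tested on simulated data. Alternatives were other scalings, no filter, DESeq2 1.42.0, voom in limma 3.58.1, a non-robust spread, only the groups compared, the library labelled heterozygote added, and leaving out each library. Counting intervals and floors are at the 95% level and cover counting error only.

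The members and lists were chosen with earlier results of these data known. A member is given in every library when it was called with an absolute log2 fold change of at least 1 in some comparison; Slc25a20, Bdh1, Cpt1a and Hadh were added. Of the other pathway genes, Acat1, Ppara, Ppargc1a and Fgf21 are always named and, per comparison, the 2 called genes with the largest rise and the 2 with the largest fall; a few genes that this rule also names are not reported here. Of 112 symbols 106 matched, and 3 of these did not pass the filter; the rest were not analysed here. Transcript windows and exon lengths came from GENCODE M21, a later build than that of the counts, and were used without coordinates. Promoters came from RefSeq on GRCm38.p6.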

Additional observations from a re-analysis of the deposited data

Results flagged for a closer look

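The DEN response differed between genotypes, by the interaction term of the edgeR fit, for 11 of the genes named. Over all tested genes 2.50% were called lower and 4.07% higher. Some genes were named for a large interaction or after their values were seen, so the 11 are no share of any list. In log2 units the response of the knockout minus that of wild type was -2.23 for Acot2, -1.03 for Ehhadh, -1.02 for Crat, -0.90 for Acsl1 and -0.71 for Slc25a20 among the members. Among the named genes of the other pathway lists it was -1.26 for Slc22a5, 1.93 for Acss2, 1.66 for Acsm1 and 1.28 for Oxct1. Of all 103 genes tested in those lists, 11 were called higher and 5 lower. For Cidec and Fabp4, listed as adipocyte markers, it was -2.60 and -1.97. Each of these 11 calls was lost without DENKO_141, with adjusted p of up to 0.22 over all alternatives; the cause was not tested.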

How the results depend on the processing

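No paired analysis was possible because no replicate number in the titles occurs in more than 1 group. With total-count scaling, members lower after DEN in wild type numbered 5 (10 in the edgeR fit reported), members higher after DEN in the knockout 13 (8), and members lower in the knockout than in wild type under DEN 13 (6). Acaa2 after DEN in wild type then changed sign, to 0.02 from -0.46. DESeq2 gave 12 members lower in the knockout under DEN, fitting only the groups compared gave 5 higher after DEN in the knockout, and no filter on low counts gave 3 interaction calls (5). Leaving out each library gave 16 to 20 higher and 9 to 10 lower members after DEN in wild type, and 3 to 8 higher and 4 to 7 lower in the knockout. For knockout against wild type it gave 0 to 3 higher and 0 to 9 lower under DEN and 0 under PBS, and for the interaction 0 to 4 lower and 0 higher. The cause of these shifts was not tested. Fits of single genes under settings other than leaving out a library ended 36 calls, added 48 and left 2057 results on the same side of the threshold; leaving out a library ended 158, added 28 and left 2839. The interaction was not fitted with only the groups compared, since it needs all 4. With 2 DEN knockout libraries, leaving out either leaves 1 and a pooled spread. Depth limits Acot5 and Fgf21, at or under a few counts in some groups.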
